A study of Mus musculus with 4 samples.

Results

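The transcripts described here are those of 10 mouse genes for heat shock proteins and their co-chaperones: Hsph1, Hspa1a, Hspa1b, Hspa8, Hspb1, Hsp90aa1, Hspd1, Hspe1, Dnaja1 and Dnajb1. They were taken by gene symbol from a table of 45882 gene IDs measured in cardiac endothelial cells, and each symbol was found once. RNA was sequenced from cells that a pair of passes over anti-CD31 magnetic beads had selected from collagenase-digested hearts of male mice. The WT saline group was wild type and received saline. The WT Dox group was wild type and received doxorubicin, an anthracycline cancer drug, at 5 mg/kg in each of 4 weekly tail vein injections. The Smad3 KO saline and Smad3 KO Dox groups carried the Smad3 null allele of the 129-Smad3tm1Par/J line and received the same injections of saline or doxorubicin. This knockout is global, so Smad3 function is missing from every tissue and not from endothelium alone. Injections began at 7 wk of age, and cells were collected 9 wk after the last injection at 20 wk of age. Each group had 1 library, and whether a library held 1 heart or several is not given in the sources used here, so no difference has a replicate check, an error or a test.

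Heat shock proteins are molecular chaperones, which bind unfolded protein, keep it from aggregating and help it fold. The HSP70 proteins work in cycles of ATP binding and release: J-domain proteins (the DNAJ or HSP40 family) bring the client and trigger ATP hydrolysis, and exchange factors such as HSP110 reset the cycle. HSP90 takes over partly folded clients, many of them kinases and receptors, small heat shock proteins hold unfolded protein without ATP, and HSP60 with its HSP10 lid folds proteins inside mitochondria. Part of this set is made at all times and part is switched on by heat shock factor 1 (HSF1), which binds inverted repeats of GAA in promoters, the heat shock elements. Heat shock transcripts are also known to rise while tissue is digested with enzymes at warm temperature.

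The promoter sequences are shown first because they group the 10 genes by how closely they carry the HSF1 recognition letters. The sequences are from RefSeq (GRCm38.p6) and cover 250 bases before to 50 bases after a transcription start, for 8 of the 10 genes. A 2-unit match was GAA followed after any 2 bases (NN) by TTC, or TTC followed after NN by GAA, and each of these reads the same on both strands. A 3-unit match was GAA, NN, TTC, NN and GAA in a row, or TTC, NN, GAA, NN and TTC in a row, sought on both strands, and holds both 2-unit matches within it. The 3-unit letters stood in 0.603% of the 32851 promoter windows of the mouse, and the 2-unit letters in 15.1%. Capitals mark the match in each stretch of 30 bases.
Hsph1, chr5:149636287-149636316, minus strand: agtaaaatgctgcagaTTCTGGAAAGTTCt
Hspe1, chr1:55088053-55088082, plus strand: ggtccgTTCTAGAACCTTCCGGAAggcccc
Hspa1a, chr17:34972242-34972271, minus strand: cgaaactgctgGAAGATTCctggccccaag
Hspa1b, chr17:34959324-34959353, minus strand: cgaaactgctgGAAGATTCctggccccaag
Hspb1, chr5:135887791-135887820, plus strand: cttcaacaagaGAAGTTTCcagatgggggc
Hspb1, chr5:135887811-135887840, plus strand: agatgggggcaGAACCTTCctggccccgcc
Dnaja1, chr4:40722333-40722362, plus strand: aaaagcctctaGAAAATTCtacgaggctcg

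Hsph1 and Hspe1 held 3-unit matches. That of Hsph1 lay just after the start, at bases 37 to 49, and that of Hspe1 lay at bases -89 to -72, where overlapping matches ran together to 18 bases. Hspd1 and Hspe1 are transcribed away from each other on chromosome 1, so the Hspe1 element is also, on the opposite strand, at bases -144 to -127 from a start of Hspd1. Hspa1a, Hspa1b, Hspb1 and, at 1 of its 3 starts, Dnaja1 held 2-unit matches only, all between bases -124 and -90. The windows of Dnajb1 held neither form. None of the windows of these genes held TATAAA on either strand, which stood in 13.6% of all promoters, and CCAAT or its complement stood in windows of 6 of the 8 genes, beside 37.4% of all windows. A match describes letters, and no binding was measured.

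The stress-inducible HSP70 genes Hspa1a and Hspa1b lie side by side on chromosome 17 and are near-identical also upstream of their starts, in bases that are not part of the transcripts. The 250 bases before each start differed at 3 positions, which stand in capitals.
Hspa1a, chr17:34972157-34972406, minus strand: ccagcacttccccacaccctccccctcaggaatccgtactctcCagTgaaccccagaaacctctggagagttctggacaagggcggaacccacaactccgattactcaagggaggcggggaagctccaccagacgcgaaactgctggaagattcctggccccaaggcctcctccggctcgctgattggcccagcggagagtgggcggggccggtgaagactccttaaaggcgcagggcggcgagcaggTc
Hspa1b, chr17:34959239-34959488, minus strand: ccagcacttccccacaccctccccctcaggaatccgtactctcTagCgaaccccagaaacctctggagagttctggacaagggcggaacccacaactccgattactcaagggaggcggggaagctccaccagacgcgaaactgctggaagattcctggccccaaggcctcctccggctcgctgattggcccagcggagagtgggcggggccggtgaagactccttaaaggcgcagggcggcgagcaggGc
Within the transcripts, 40.5% of the 150-base windows of Hspa1b also stood in Hspa1a, so a read from such a window cannot be given to either gene with certainty. Windows shared with other annotated genes, mostly processed copies, made up 56.0% in Hspa8, 53.4% in Hspb1, 36.2% in Hsp90aa1, 20.0% in Dnaja1, 18.6% in Hspd1 and 14.1% in Hspe1. Hsph1 and Dnajb1 shared none, so of the 10 genes their values are the least open to this.

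Smad3, the targeted gene, was examined first because it checks the group names. FPKM is the number of sequenced fragments scaled to transcript length and library size. By this measure Smad3 stood at 2.95 FPKM in wild type with saline and 2.09 FPKM with doxorubicin, and in knockout at 1.02 FPKM with saline and 0.848 FPKM with doxorubicin. Both knockout libraries were below both wild-type libraries, with transcript left in each. Of the genes whose mean reached 1 FPKM, 20.7% had this pattern, so the check of the names is a limited one. Groups follow the sample titles, and the genotype tag contradicts the title in 2 libraries (WT Dox and Smad3 KO saline). The low values of the table gave an estimated depth of 28000000, 26000000, 26000000 and 21000000 fragments, in the order wild type with saline, wild type with doxorubicin, knockout with saline and knockout with doxorubicin. Lists of 4 values keep this order throughout. At that depth the fewest fragments behind a value were about 449 for Hsph1 in Smad3 KO Dox, where counting error alone spans 0.13 on the log2 scale to either side. Pecam1, which encodes CD31, stood between 401 and 511 FPKM in the 4 libraries. Not every endothelial marker was as steady, with Cdh5 at 475, 372, 341 and 168 FPKM. The FPKM sum ranged from 509818 to 666863 and mitochondrially encoded transcripts took 8.95% to 20.1% of it, so that rescaling the libraries moves small differences.

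Heat shock transcripts were abundant in every library. In wild type the 10 genes together summed to 3810 FPKM with saline and 4012 FPKM with doxorubicin, and in knockout to 3264 FPKM with saline and 2160 FPKM with doxorubicin. As a share of all FPKM these sums were 0.747%, 0.692%, 0.490% and 0.384%. Both knockout libraries had a lower share than both wild-type libraries, and with mitochondrially encoded and globin genes left out of the total the shares were 0.843%, 0.840%, 0.624% and 0.446%, in the same order of libraries. In these bulk libraries fewer cells of a type and less RNA per cell cannot be told apart. The plot of levels by library shows that the sums were set by a few genes, with Hspa8 alone at 43.7% to 47.7% of them.

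**Figure D1:**
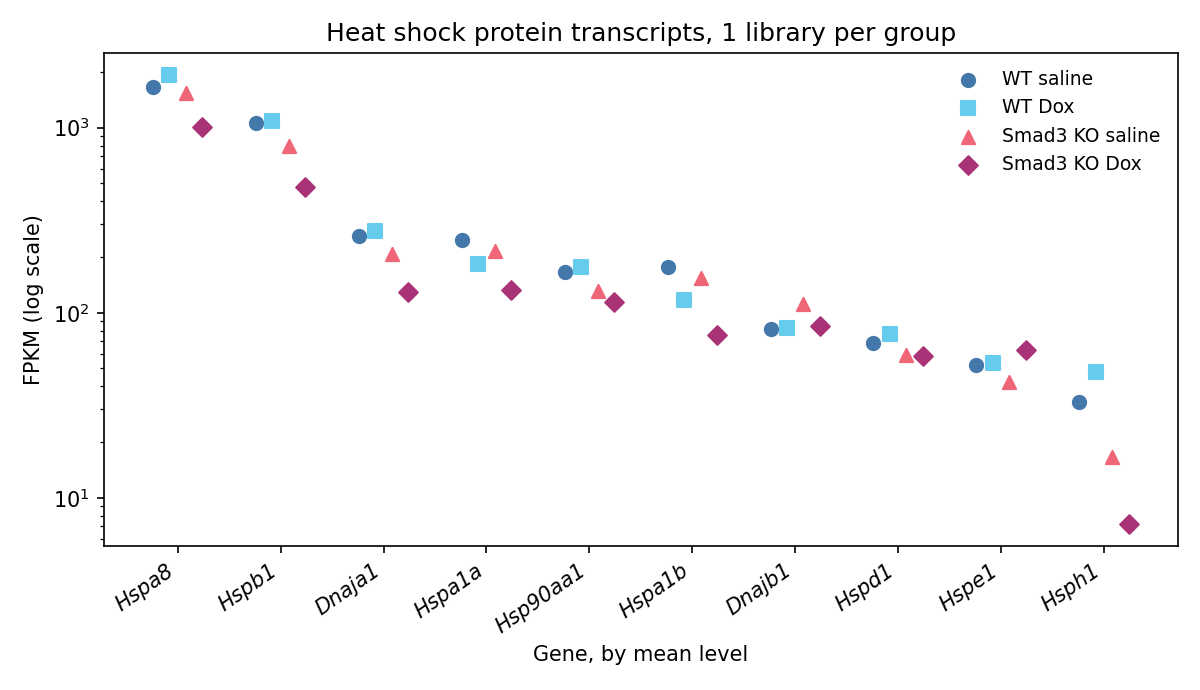
FPKM of the 10 genes on a log axis, 1 point per library, with genes ordered by mean level over the 4 libraries. Hspa8 and Hspb1 stood highest, Hsph1 stood lowest and had the widest spread, from 7.26 to 47.8 FPKM.

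Hsph1 encodes HSP110 (HSPH1), the exchange factor that restarts the HSP70 cycle and works with HSP70 to take aggregates apart. The gene spans chr5:149614287-149636376 on the minus strand and overlapped no other annotated gene. Wild-type cells had 32.8 FPKM with saline and 47.8 FPKM with doxorubicin, and knockout cells had 16.6 FPKM with saline and 7.26 FPKM with doxorubicin. This was the lowest mean level of the 10 and the widest range, 6.59-fold from the lowest to the highest library. Doxorubicin-treated cells had the higher level of the pair in wild type and the lower level of the pair in knockout, with log2(FPKM + 0.5) differences of 0.54 and -1.14. Between the doxorubicin libraries Hsph1 fell by 2.64 in knockout, and between the saline libraries it differed by -0.96. Per 100 FPKM of Hspa8 in the same library, a ratio that no rescaling of libraries changes, Hsph1 stood at 1.97, 2.50, 1.08 and 0.716. Averaged over treatments, the knockout libraries differed from the wild-type libraries by -1.80. Grouped by the genotype tag the value was -0.30, but that grouping sets the doxorubicin libraries against the saline libraries. By the tags, genotype and drug cannot be told apart.

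Hspa8 encodes HSC70, the HSP70 that cells make at all times and that also uncoats clathrin vesicles. It lies at chr9:40800984-40810087 on the plus strand, with 3 small nucleolar RNA genes inside it. Its level was 1665 FPKM (saline) and 1915 FPKM (doxorubicin) in wild type, and 1532 FPKM (saline) and 1014 FPKM (doxorubicin) in knockout. By mean level it ranked 47 among the 12325 genes whose mean reached 1 FPKM. Smad3 KO Dox was thus the lowest library here as for Hsph1, within a narrower range. The log2 difference between the doxorubicin libraries was -0.92, just short of the size of 1 used here to call a gene higher or lower. It passed that size with median-ratio scaling of the libraries (-1.06) and with the trend over transcript length removed (-1.13).

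Hspa1a and Hspa1b encode the HSP70 that is scarce in unstressed cells and rises with heat. Hspa1a (chr17:34969190-34972156, minus strand) stood at 248 FPKM with saline and 183 FPKM with doxorubicin in wild type, and at 215 and 133 FPKM in knockout. Hspa1b (chr17:34956436-34959238, minus strand) stood at 176, 116, 153 and 75.6 FPKM in the same order. Unlike the other 8 genes, this pair was at its lower wild-type level after doxorubicin as deposited, with differences of -0.43 and -0.59, and each was lower in the doxorubicin library of both genotypes. Between the knockout libraries the differences were -0.69 for Hspa1a and -1.01 for Hspa1b. The call of Hspa1b rested on the split of reads within the pair, since the sum of both genes differed by -0.82, and it ended with TPM (-0.77). Per 100 FPKM of Hspa8, the pair summed to 25.5, 15.7, 24.1 and 20.6, so relative to HSC70 the inducible form was lowest in WT Dox.

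The J-domain genes Dnaja1 and Dnajb1 encode the co-chaperones that deliver clients to HSP70, of class A and class B. Dnaja1 (chr4:40722150-40737149, plus strand) stood at 259 FPKM with saline and 275 FPKM with doxorubicin in wild type, and at 207 and 129 FPKM in knockout. Dnajb1 (chr8:83608193-83612653, plus strand) stood at 81.9, 83.1, 112 and 84.5 FPKM, with its highest value in Smad3 KO saline where Dnaja1 was below both wild-type libraries. The genes thus differed in their pattern. Dnaja1 fell by 1.09 on the log2 scale in Smad3 KO Dox against WT Dox (-0.86 with the trend over transcript length removed, short of the size of 1), while Dnajb1 differed by 0.02. Per 100 FPKM of Dnaja1 there were 31.6 and 30.2 FPKM of Dnajb1 in the wild-type libraries, against 54.0 and 65.5 in the knockout libraries. Their sum per 100 FPKM of Hspa8 was nearly level, at 20.5, 18.7, 20.8 and 21.1.

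Hspb1 encodes HSP25, the mouse form of human HSP27, a small heat shock protein that binds unfolded protein and acts on actin filaments. At chr5:135887919-135889563 on the plus strand, it was the second most abundant of the 10. Wild-type cells had 1060 FPKM with saline and 1083 FPKM with doxorubicin, and knockout cells 797 FPKM with saline and 481 FPKM with doxorubicin. It was level between the wild-type libraries (0.03 on the log2 scale) and fell by 1.17 in Smad3 KO Dox against WT Dox. Per 100 FPKM of Hspa8 it stood at 63.6, 56.6, 52.0 and 47.4.

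Hsp90aa1 encodes HSP90 alpha, the inducible cytosolic HSP90. At chr12:110690605-110702728 on the minus strand, it stood at 166 FPKM with saline and 178 FPKM with doxorubicin in wild type, and at 130 and 114 FPKM in knockout. The knockout libraries were both below the wild-type libraries, and no difference reached 1 in log2, the widest being -0.63 between the doxorubicin libraries. Against HSC70 it did not follow Hsph1 or Hspb1, with 9.98, 9.27, 8.51 and 11.3 FPKM per 100 FPKM of Hspa8.

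Hspd1 and Hspe1 encode HSP60 and its lid HSP10, the chaperonin of the mitochondrial matrix, from starts that face away from each other. Hspd1 (chr1:55077835-55088243, minus strand) stood at 68.5 FPKM with saline and 77.1 FPKM with doxorubicin in wild type, and at 59.4 and 58.3 FPKM in knockout. Hspe1 (chr1:55088132-55091307, plus strand) stood at 52.3, 53.5, 42.0 and 63.2 FPKM. The genes overlap at their 5' ends and share a promoter region, yet differed in Smad3 KO Dox, where Hspe1 had its highest value in each scaling tried and Hspd1 had its lowest as deposited, though not with TPM or with mitochondrially encoded and globin genes left out. There were 76.4, 69.4 and 70.6 FPKM of Hspe1 per 100 FPKM of Hspd1 in the first 3 libraries and 108 in Smad3 KO Dox. The smaller transcript, Hspe1 with 774 bases against 2423 for Hspd1, rests on fewer fragments, about 520 at its lowest. Between the doxorubicin libraries Hspe1 differed by 0.24 and Hspd1 by -0.40. With the trend over transcript length removed, all 10 genes, Hspe1 among them, lay below 0 there. Neither gene reached a log2 difference of 1 in any comparison, with 0.58 for Hspe1 between the knockout libraries as the widest of this pair.

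The 4 comparisons were then set against all 12325 genes, and the heat map gives every value. A gene was called higher or lower at a difference of at least 1 in log2(FPKM + 0.5), on which changes of weakly expressed genes come out too small. WT Dox against WT saline asked for a late mark of doxorubicin in wild-type endothelium. None of the 10 genes was called, while 1.03% of all genes were higher and 2.69% lower (3.72% in either direction). Their differences ran from -0.59 for Hspa1b to 0.54 for Hsph1, with a median of 0.06 beside -0.06 over all genes. By sign 8 of the 10 were above 0 as deposited, but 2 of 10 with TPM, which shifted the median of all genes by -0.18. Against the median of all genes only Hspa1a and Hspa1b were lower, as deposited and with each of the 4 other scalings. With the trend over transcript length removed, 4 of the 10 were lower.

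**Figure D2:**
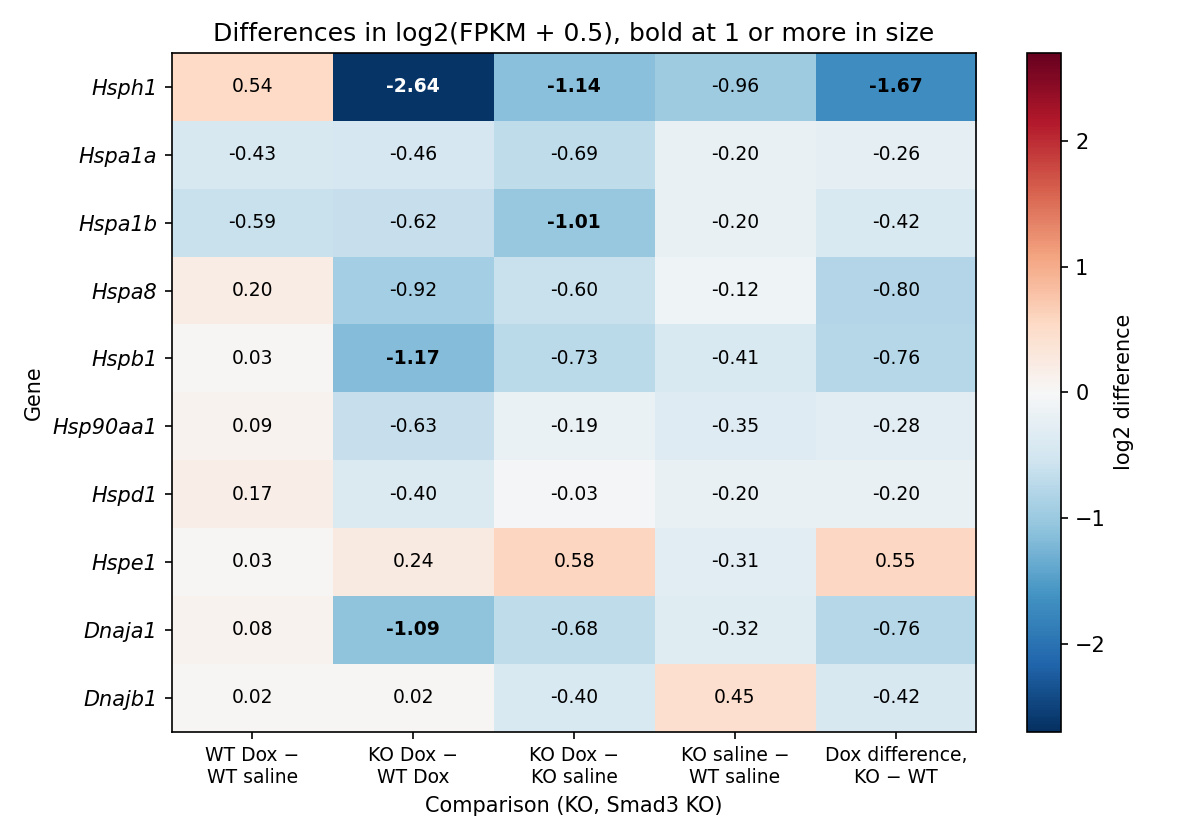
Heat map of differences in log2(FPKM + 0.5) for the 10 genes (rows) in 4 comparisons of 2 libraries each, with the knockout difference minus the wild-type difference after doxorubicin in the last column. Values of at least 1 in size stand in bold: Hsph1 in 3 columns, Hspb1 and Dnaja1 between the doxorubicin libraries, and Hspa1b between those of the knockout.

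Smad3 KO Dox against WT Dox asked how the loss of Smad3 bears on treated hearts. Hsph1, Hspb1 and Dnaja1 were called lower and none of the 10 was called higher, where 3.75% of all genes were lower and 6.17% higher (9.92% in either direction). The median of the 10 was -0.63, beside 0.12 over all genes, and 9 of the 10 lay below that all-gene median in each scaling. Hspe1 (0.24) was the exception, as long as the trend over transcript length was left in. With median-ratio scaling the median of all genes moved by -0.13 and the calls over all genes turned from 761 higher and 462 lower to 527 higher and 675 lower. In the histograms Hsph1 stood far out in the lower tail, while Dnajb1 (0.02) and Hspe1 lay near the centre.

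**Figure D3:**
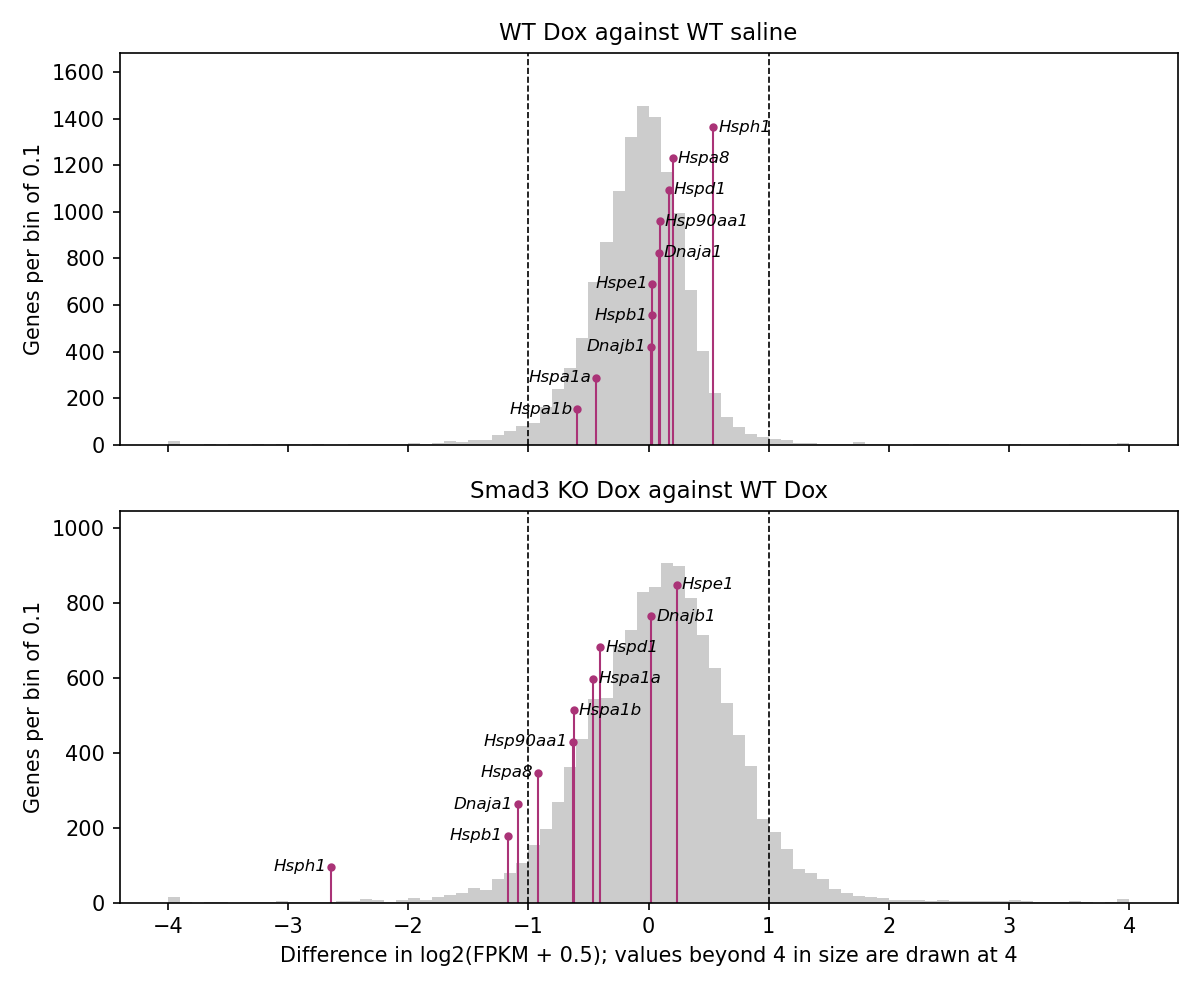
Histograms of the difference in log2(FPKM + 0.5) over 12325 genes (grey, bins of 0.1) for WT Dox against WT saline (upper) and Smad3 KO Dox against WT Dox (lower), with the 10 genes as purple lines whose heights have no meaning and dashed lines at a size of 1. The 10 genes lay between -0.59 and 0.54 in the upper panel and between -2.64 and 0.24 in the lower.

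Several measures moved with this comparison. Differences followed transcript length, with a median of 0.38 over the shortest of 3 equal groups of genes, 0.16 over the middle group and -0.23 over the longest, and once that trend was removed all 10 genes lay below 0. The 17 macrophage markers in the table summed to 707, 732, 441 and 284 FPKM, with none at the floor of the table. Of the 15 above the filter, 10 were called lower between the doxorubicin libraries, where 3.75% of all genes were. The same order of libraries as Hsph1 was seen in 8 of the 15, beside 3.72% of all genes. The 7 red blood cell markers in the table summed to 4423, 4384, 10289 and 28548 FPKM, with Slc4a1 among those at the floor in some library, and the 18 cardiomyocyte markers to 1342, 1673, 2061 and 2640 FPKM. The 14 endothelial markers summed to 3599, 3591, 3653 and 2919 FPKM. Of these, 2 were called lower between the doxorubicin libraries, Cdh5 (-1.15) and Ptprb (-1.10), where 3.75% of all genes were. Smad3 KO Dox was the lowest library for 9 of the 14 and the highest for 1, beside 31.4% and 41.5% of all genes. Fibroblast markers summed to 257, 245, 265 and 301 FPKM, pericyte and smooth muscle markers to 995, 1234, 1441 and 1321 FPKM and markers of other leukocytes to 16.6, 13.8, 14.0 and 15.1 FPKM, with Ncr1, S100a8, S100a9 and Cd8a at the floor in some library. The part of these cells in the heat shock values was not tested.

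The third comparison, of Smad3 KO Dox with Smad3 KO saline, asked for the late mark of doxorubicin without Smad3. Hsph1 and Hspa1b were called lower, where 2.84% of all genes were. None of the 10 was called higher, where 4.02% of all genes were (6.86% in either direction). The median of the 10 was -0.64 beside 0.05 over all genes. The call of Hsph1 ended with TPM (-0.92), a scaling that moved the median of all genes by 0.23, and 9 of the 10 genes lay below the all-gene median in each scaling. Smad3 KO saline against WT saline asked for the mark of Smad3 loss without the drug. None of the 10 was called, where 1.7% of all genes were higher and 3.03% lower (4.72% in either direction). Their median was -0.26 beside -0.01 over all genes, and Dnajb1, at 0.45, was the only one above 0. Hsph1 (-0.96) passed the size of 1 with TPM (-1.36) and with scaling that left out mitochondrially encoded and globin genes (-1.17).

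The difference between the genotypes in their doxorubicin difference was taken as a description of the 4 libraries. Hsph1 (-1.67) was the only one of the 10 past the size of 1, where 3.03% of all genes were lower and 7.46% higher (10.5% in either direction). The next were Hspa8 at -0.80 and Hspb1 and Dnaja1 at -0.76 each. Hspe1 (0.55) was on the other side. The median of the 10 was -0.42 beside 0.12 over all genes, and 9 of the 10 lay below the all-gene median in each scaling, although with TPM only 4 of the 10 lay below 0 since that scaling moved the median of all genes by 0.41.

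The order of the libraries was shared by most of the genes, a pattern noticed after the values were seen. For 6 of the 10 (Hsph1, Hspa8, Hspb1, Hsp90aa1, Hspd1 and Dnaja1) the level ran from WT Dox through WT saline and Smad3 KO saline to Smad3 KO Dox, an order that 3.72% of all genes had. The full order depended on scaling, since 2 of the 10 had it with TPM and 4 with mitochondrially encoded and globin genes left out. WT Dox was the highest library for 2 of the 10 and 5 of the 10 under these scalings, in place of 6. The count with both knockout libraries below both wild-type libraries did not depend on it. It was 6 of the 10 as deposited and in each of the 4 other scalings, against 20.7% of all genes as deposited and 31.5% with TPM. Other lists had this pattern too. Endothelial markers had it in 4 of 14 as deposited and 10 of 14 with TPM. Genes of the unfolded protein response had it in 9 and 16 of 21, and macrophage markers in 12 and 13 of 15. Smad3 KO Dox was the lowest library for 8 of the 10, all but Hspe1 and Dnajb1, against 31.4% of all genes, and for 6 of the 10 with TPM, against 23.9%. The members share libraries, so these counts are not independent of one another.

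The genes with the pattern most like that of Hsph1 were sought among the 8154 genes whose mean reached 5 FPKM, by the root mean square distance between log2 values centred on each gene's mean over the 4 libraries. The closest was Trf, the iron carrier transferrin (54.1, 61.7, 30.6 and 10.5 FPKM; distance 0.19). The chemokine gene Ccl9 followed (27.4, 41.7, 19.0 and 8.19 FPKM; 0.20), then F13a1, a subunit of clotting factor XIII (26.8, 29.0, 15.8 and 5.83 FPKM; 0.23). Lyz2, the lysozyme of myeloid cells, stood at 192, 167, 69.6 and 34.4 FPKM (0.27), and the folate receptor gene Folr2 at 23.9, 26.1, 14.5 and 6.21 FPKM (0.27). Lyz2 and F13a1 stand in the macrophage list above. No other heat shock gene was among the closest: Hspb1 came at place 88, Dnaja1 at 132 and Hspa8 at 373, while Hspe1 came at 4451. With 4 libraries a close pattern is a description only.

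**Figure D4:**
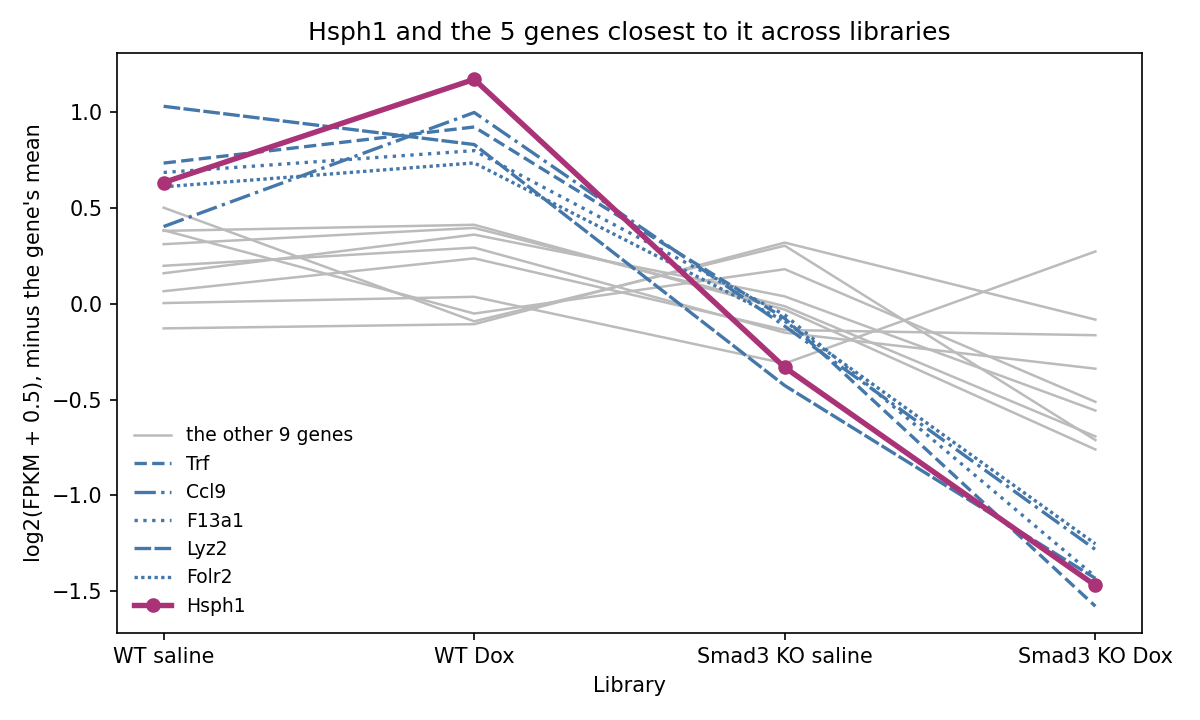
log2(FPKM + 0.5) of Hsph1 (purple), the 5 genes closest to it (blue) and the other 9 heat shock genes (grey), each minus its mean over the 4 libraries, with lines that join libraries only to guide the eye. Hsph1 and its 5 closest genes dropped to the lowest point in Smad3 KO Dox, below the other 9.

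The rest of the chaperone system was taken from lists of its families. Heat shock factors were near level: Hsf1 stood at 17.6, 14.4, 16.1 and 15.7 FPKM and Hsf2 between 2.42 and 3.03 FPKM, and none of the 3 tested of 7 listed was called in any comparison. Of 16 other genes known as HSF1 targets, 4 were lower between the doxorubicin libraries and none higher, where 3.75% of all genes were lower. Their median was -0.63, beside 0.12 over all genes. The 4 were Hspa4l, an HSP110 relative of Hsph1 (9.19 to 3.26 FPKM, -1.37), Cacybp, a partner of ubiquitin ligases (48.3 to 20.2 FPKM, -1.24), Stip1 (108 to 50.8 FPKM, -1.07) and Chordc1 (26.6 to 12.6 FPKM, -1.05). The calls of Hspa4l (-0.87) and Chordc1 (-0.79) ended with the length trend removed. Both knockout libraries lay below both wild-type libraries for 9 of the 16, where 20.7% of all genes had that pattern. Ubb, a polyubiquitin gene, stood at 784, 602, 572 and 893 FPKM, with its highest value where most of these genes had their lowest.

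Hsp90ab1, the constitutive HSP90 beta, stood at 1020, 1192, 809 and 602 FPKM, and its difference of -0.98 between the doxorubicin libraries was short of the size of 1. Of 21 HSP90 co-chaperones, Stip1, which links HSP70 to HSP90, and Chordc1 were called lower between the doxorubicin libraries, where 3.75% of all genes were. The list median was 0.05, beside 0.12 over all genes. Depending on the scaling, 8 to 10 of the 21 had their highest level in Smad3 KO Dox, beside 41.5% of all genes as deposited and 34.8% with median-ratio scaling. Among 12 BAG proteins and other HSP70 cofactors none was called in any of the 4 comparisons, where 3.72% to 9.92% of all genes were. Bag3, an HSF1 target that joins HSP70 to small heat shock proteins, stood at 98.1, 95.3, 110 and 62.2 FPKM.

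Families differed in where Smad3 KO Dox stood. It was the lowest library for 8 of 11 other DNAJA and DNAJB genes and 6 of 10 other HSP70 and HSP110 genes, where 31.4% of all genes had it lowest, and for 3 of the 11 and 4 of the 10 with TPM, where 23.9% did. All 6 other small heat shock protein genes above the filter had their highest value in that library, where 41.5% of all genes did, and 4 of the 6 with median-ratio scaling, where 34.8% did. Transcripts of these 6 ran from 608 to 2769 bases. Their median against WT Dox was 0.37, beside 0.38 over the shortest of 3 equal groups of genes by transcript length. Cryab, the alpha B crystallin of muscle, stood at 25.3, 30.0, 32.9 and 44.0 FPKM, and Hspb2, its neighbour in the genome, rose from 3.75 to 8.14 FPKM in Smad3 KO Dox over Smad3 KO saline (1.02, but short of 1 at 0.76 to 0.99 under 4 alternatives). Cardiomyocytes, which express both, had their marker sum highest in the same library. Of 17 markers above the filter, 12 were highest there and 3 (Myl7, Mb and Atp2a2) lowest, beside 41.5% and 31.4% of all genes. The part of cardiomyocytes was not tested. In the subunits of TRiC and prefoldin, which fold actin and tubulin, 11 of 14 were highest in Smad3 KO Dox, 9 of 14 with median-ratio scaling. Their median against WT Dox was 0.24 and none was called, where 9.92% of all genes were called in either direction. The counts by family were not adjusted for transcript length.

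J-domain genes of the DNAJC family held 3 calls of higher level and none of lower among 27 tested, between the doxorubicin libraries, where 6.17% of all genes were higher and 3.75% lower. Dnajc15, of the mitochondrial inner membrane, rose from 17.2 to 45.6 FPKM (1.38), Hscb, of iron-sulfur cluster assembly, from 13.1 to 33.3 FPKM (1.32) and the mitochondrial gene Dnajc30 from 7.23 to 18.0 FPKM (1.26). The calls of Hscb (0.91) and Dnajc30 (0.89) ended with the length trend removed. None of 11 other DNAJA and DNAJB genes was called, and Dnaja4, a close relative of Dnaja1, differed by -0.98. In the endoplasmic reticulum Hspa5, the HSP70 called BiP, fell from 340 to 169 FPKM (-1.01, and -0.97 with TPM). It was the only one of 21 genes of the unfolded protein response to be called, where 3.75% of all genes were called lower. Of the 21, 16 had their lowest level in Smad3 KO Dox (13 with TPM), where 31.4% of all genes did (23.9% with TPM). Hspa9, the HSP70 of mitochondria and partner of HSP60, stood at 53.5, 52.9, 55.3 and 58.3 FPKM, and of 14 genes of mitochondrial protein quality Hscb alone was called in this comparison.

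**Figure D5:**
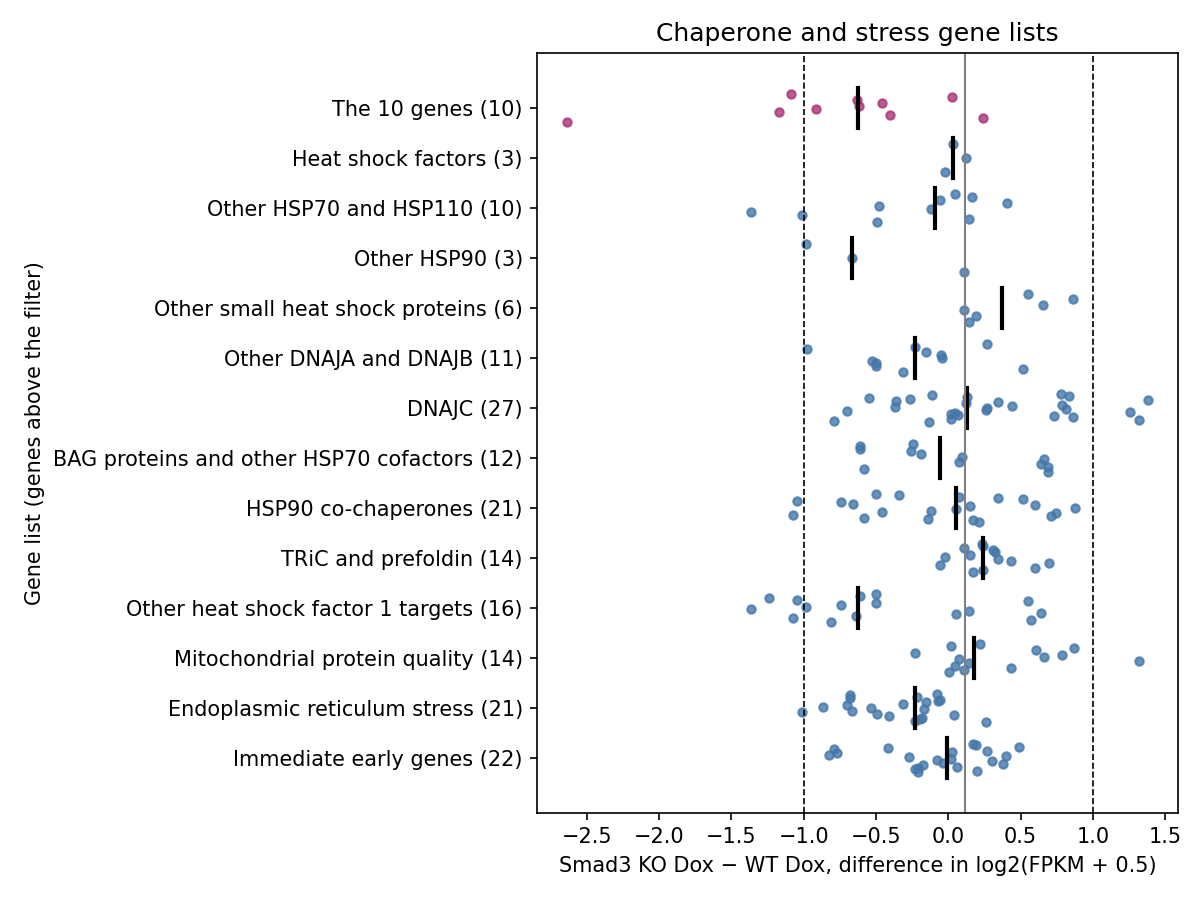
Difference between Smad3 KO Dox and WT Dox in log2(FPKM + 0.5) for each gene above the filter (points) by list, with list medians as black bars, the median of all genes (0.12) as a grey line and dashed lines at a size of 1. The 10 genes and the other HSF1 targets each had a median of -0.63, while the medians of the small heat shock, TRiC and mitochondrial lists lay to the right of the all-gene median.

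Immediate early genes, which like heat shock genes rise during cell isolation, were compared for that reason. None of 22 was called in any of the 4 comparisons, where 3.72% to 9.92% of all genes were. Their sums were 17498, 13027, 14016 and 13215 FPKM, highest in WT saline. As deposited, of the heat shock genes only Hspa1a and Hspa1b were highest there. This depended on scaling. With TPM, 8 of the 10 lay below 0 in WT Dox against WT saline. Beside Hspa1a and Hspa1b these were Hspb1 (-0.15), Hsp90aa1 (-0.09), Hspd1 (-0.01), Dnaja1 (-0.10), Hspe1 and Dnajb1. Hsph1 (0.36) and Hspa8 (0.02) stayed above 0. All 22 immediate early genes were below 0 in WT Dox against WT saline as deposited, where 56.9% of all genes were. Their median was -0.40 beside -0.06 over all genes. Between the doxorubicin libraries, where Hsph1, Hspb1 and Dnaja1 fell, the median of the 22 was -0.01 beside 0.12 over all genes. Smad3 KO Dox was the lowest library for 10 of the 22 and the highest for 3, beside 31.4% and 41.5% of all genes. Whether cell isolation took part in the heat shock values was not tested.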

How the data were processed

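RNA of cardiac endothelial cells was sequenced in 4 libraries, 1 per group, as paired reads of 150 bases per the labels. The authors deposited FPKM per gene and library. STAR and CASAVA are named in the submitters' processing notes, with mouse build GRCm38 (p4). Since the study's methods give TopHat, Bowtie and Cufflinks on a human build for all of its sequencing, it is uncertain which aligner made these FPKM. Use of strand is not given in the sources used here.

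Of 45952 lines, those of the 51 IDs on several lines were summed and 1 value below the floor was set to 0.05 FPKM. Differences were taken between log2(FPKM + 0.5) values over the 12325 genes whose mean reached 1 FPKM, and called at a size of 1. FPKM carry no counts, so no count test was run, and 1 library per group allows no test. Depth was estimated from the steps between low values, searched from 15000000 to 35000000 fragments. Scripts (python 3.11.15, pandas 2.3.3, numpy 2.4.6) were tested on simulated data. Lengths and positions are from GENCODE M21.

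The 10 genes and 20 other lists were chosen with earlier results of these data known. Named genes were the 10, Smad3, up to 3 genes per list past the size of 1 in each comparison and direction, and the 5 closest to Hsph1. Hsf1, Hsf2, Hsp90ab1, Bag3, Cryab, Dnaja4 and Hspa9 were named after their values were seen.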

Additional observations from a re-analysis of the deposited data

Results flagged for a closer look

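The doxorubicin difference in log2(FPKM + 0.5) had opposite signs in the genotypes, and the genotypes differed by at least 1, in 949 of the 12325 genes (7.7%). The 10 genes, the genes named from the chaperone and stress lists and the 5 genes closest to Hsph1 were screened for this, and markers of other cell types only where they were among those 5. Each value rests on 1 library per group, and the difference was not tested. For Hsph1 it was 0.54 in wild type and -1.14 in knockout, a difference of -1.67. For Ubb it was -0.38 in wild type and 0.64 in knockout, a difference of 1.02, which fell short of 1 with median-ratio scaling (0.85), upper-quartile scaling (0.86) and the length trend removed (0.74). Of the 5 genes closest to Hsph1, which were chosen for their likeness to it, 4 had this pattern. For Trf the difference was 0.19 in wild type and -1.50 in knockout (-1.69 between them). Ccl9 had 0.59 and -1.16 (-1.76), F13a1 had 0.11 and -1.37 (-1.48) and Folr2 had 0.12 and -1.16 (-1.29).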

How the results depend on the processing

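Over 570 combinations of a heat shock gene, a comparison and an alternative, 553 stayed on their side of the size of 1, 11 fell short of it and 6 passed it. The changes of filter could not move any of these values, since the lowest mean of the 10 genes was 26.1 FPKM (Hsph1). The 570 also hold the grouping by genotype tag. The 553 thus overstate how far the values were put to the test. No called value changed sign. Counts of the 10 called lower moved as follows. A size of 2 in place of 1 left 1 of 3 between the doxorubicin libraries, 0 of 2 between the knockout libraries and 0 of 1 in the difference between genotypes. Between the knockout libraries the count was 0 with TPM and 1 with scaling without mitochondrially encoded and globin genes. Between the saline libraries both scalings gave 1 in place of 0, and removing the length trend gave 2 in the difference between genotypes, where Hspb1 reached -1.02, and 3 in place of 2 between the knockout libraries, where it reached -1.04. Median-ratio scaling gave 4 in place of 3 between the doxorubicin libraries.

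Counts over all genes are given for the wild-type pair, the doxorubicin pair, the knockout pair and the saline pair of libraries, and last for the difference between genotypes. They were 459, 1223, 845, 582 and 1292. Without the filter they were 814, 2043, 1661, 992 and 2526, with a mean of at least 5 FPKM 164, 632, 371, 252 and 529, and with a size of 2 they were 86, 154, 142, 109 and 248. The filter and the size set how many genes can be called. TPM gave 741 in the wild-type pair, 1406 in the saline pair and 2719 in the difference between genotypes, and replacing only the lowest values gave 690 in the wild-type pair. The cause was not tested.

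Grouping by genotype tag gave -0.29 for Smad3 and -0.30 for Hsph1 in place of the mean knockout difference. That grouping sets the doxorubicin libraries against the saline libraries, so by the tags genotype and drug cannot be told apart. No paired analysis was possible because each group has 1 library, and no library could be left out. Depth limits Hsph1 and Hspe1 most, and no error between animals can be given.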
